A study of Mus musculus with 6 samples.

Results

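The PI3K-like protein kinases form a family of 6 genes in the mouse, Atm, Atr, Prkdc, Mtor, Smg1 and Trrap, and all 6 were among the 34665 genes counted in B16 tumours (B16 is a melanoma line of the mouse). The family was taken whole by gene name. It was singled out because Atm, in these same libraries, was lower when radiation was added to immune checkpoint inhibition. The difference of Atm between the groups, and those of its relatives in the same contrast, are therefore given as a description without a test. RNA was measured by bulk sequencing of total RNA from harvested tumours, with WT given as the genotype and melanoma cells as the cell type. ICI denotes tumours treated with an immune checkpoint inhibitor alone (n = 3, replicates 1, 2 and 3). RT_ICI denotes tumours treated with radiation together with the inhibitor (n = 3, replicates 1, 2 and 4), so both groups received the inhibitor. The sources used here do not give the target of the inhibitor, the dose of radiation, the harvest time, the strain and age of the mice, or whether a sampled tumour was itself irradiated. Nothing in the labels ties each library to its own mouse. The p-values therefore reflect only how far these libraries differ among themselves, which may be technical.

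PI3K-like kinases are very large proteins related in their catalytic domain to the lipid kinases that phosphorylate phosphatidylinositol, but they phosphorylate proteins, mostly on serine or threonine. Atm is activated by DNA double-strand breaks, such as those made by ionizing radiation, through the Mre11-Rad50-Nbn complex, and signals to Chek2 and p53. Atr, with its partner Atrip, answers to single-stranded DNA at stalled replication forks and signals to Chek1, and Prkdc is the catalytic subunit of DNA-PK, which joins broken ends together with the Ku proteins Xrcc5 and Xrcc6. Mtor couples growth to nutrients and growth factors, Smg1 phosphorylates Upf1 in nonsense-mediated mRNA decay, and Trrap is a scaffold of histone acetyltransferase complexes that has lost kinase activity. Activity of these kinases is controlled largely after translation, which RNA counts do not measure.

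The 6 genes lie on 5 chromosomes and share a long, many-exon structure (GENCODE M21 on GRCm38). Atm occupies chromosome 9 from 53439149 to 53536740 on the minus strand, with 62 exons in its longest transcript of 9819 bases. Atr lies on the same chromosome from 95857597 to 95951781 on the plus strand, with 47 exons and 8102 bases. Prkdc lies on chromosome 16 from 15637866 to 15842235 on the plus strand, with 86 exons and 12647 bases. These are the DNA damage kinases of the family. Mtor lies on chromosome 4 from 148448611 to 148557683 on the plus strand, with 58 exons and 8564 bases. Smg1 lies on chromosome 7 from 118131308 to 118243670 on the minus strand, with 63 exons and 15557 bases. Trrap lies on chromosome 5 from 144767732 to 144859778 on the plus strand, with 71 exons and 12479 bases. All 6 lay in the longest 10% of tested genes by union exon length, the number of bases covered by any annotated exon. They differed in base composition: the longest transcript held 40.8% G and C in Atr, 42.6% in Atm, 43.3% in Prkdc and 44.9% in Smg1, against 53.6% in Trrap and 54.2% in Mtor. Neither an exon overlap with another gene nor a near-identical transcript was found for Atm, Prkdc, Mtor, Smg1 or Trrap. In Atr 3.07% and 1.96% of the exon bases overlapped antisense genes and 0.753% a small nuclear RNA gene.

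Atm shares its start region with Npat, a regulator of histone gene transcription that is read in the opposite direction, with 306 bases between the annotated starts. The facing stretches are shown because Atm and Npat were at different relative levels in the groups. They are taken from RefSeq on GRCm38.p6, 5' to 3' on the strand of each gene, and stop at the first annotated transcript start. Capitals mark the 125 bases that lie in both windows (chr9:53536797-53536921).
Atm, chr9:53536741-53536921, minus strand: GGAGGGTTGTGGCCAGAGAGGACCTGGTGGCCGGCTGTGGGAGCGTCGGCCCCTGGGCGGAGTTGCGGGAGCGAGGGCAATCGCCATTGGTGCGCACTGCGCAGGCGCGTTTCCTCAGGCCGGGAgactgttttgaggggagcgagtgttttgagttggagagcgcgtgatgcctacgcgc
Npat, chr9:53536797-53537046, plus strand: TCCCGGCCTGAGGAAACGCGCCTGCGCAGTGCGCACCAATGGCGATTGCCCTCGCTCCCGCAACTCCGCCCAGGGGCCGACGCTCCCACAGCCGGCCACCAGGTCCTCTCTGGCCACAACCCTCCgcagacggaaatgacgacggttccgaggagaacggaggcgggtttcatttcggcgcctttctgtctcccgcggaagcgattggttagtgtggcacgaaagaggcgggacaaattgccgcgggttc

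The shared stretch held 71.2% G and C, 1 match to CCAAT and 1 to GGGCGG, both counted on either strand. Over windows of 300 bases around RefSeq starts, 37.4% of 32851 held CCAAT and 35.7% held GGGCGG. The start region of Smg1 is shown as well because its levels, like those of Atm, did not overlap between the groups. Capitals mark the matches to CCAAT or GGGCGG on either strand, of which there were 1 and 4.
Smg1, chr7:118243671-118243887, minus strand: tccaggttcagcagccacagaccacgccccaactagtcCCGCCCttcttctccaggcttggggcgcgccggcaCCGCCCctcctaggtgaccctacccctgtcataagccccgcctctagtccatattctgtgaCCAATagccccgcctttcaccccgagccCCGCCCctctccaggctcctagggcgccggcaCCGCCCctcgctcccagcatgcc

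RefSeq windows were matched for 5 of the 6 members (Atm, Atr, Mtor, Smg1 and Trrap). CCAAT was found 4 times in the window of Mtor, once in those of Atm and Smg1, and not in those of Atr and Trrap, and each of the 5 windows held at least 1 GGGCGG. Searched on both strands, CACGTG, which 7.15% of all windows held, was in none of the 5. The same was true of TGACGTCA, held by 1.79%. These matches describe letters and not binding.

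The libraries held 22543721 to 45624013 counts. Across 16924 tested genes, edgeR's quasi-likelihood test called 9.18% in either direction, with 754 higher (4.46%) and 799 lower (4.72%) in RT_ICI, at a Benjamini-Hochberg adjusted p under 0.05. Upper-quartile scaling gave 1046 higher and 497 lower. The mitochondrially encoded genes took 4.39% to 5.01% of counts in ICI and 11.5% to 14.7% in RT_ICI. RT_ICI replicate 1 stood apart, with counts on 29748 rows of the table against 22763 to 24891 in the others. The melanocyte genes that define B16 cells (Pmel, Mlana, Tyr, Dct, Tyrp1, Mitf and Sox10) summed to 13340 to 15180 CPM (counts scaled to a common library size) in ICI and to 10072 to 14379 in RT_ICI, with none at 0. Of these 7, Mlana was called higher (574 ± 78.5 and 965 ± 115 CPM, SD, n = 3 each, adjusted p = 0.0376, edgeR) and the other 6 were not called. Summed levels of 5 genes of dividing cells did not overlap between the groups, at 774 to 1224 CPM in ICI and 582 to 763 in RT_ICI, and none of the 5 was at 0. Top2a (253 ± 51.0 and 147 ± 28.5 CPM) and Mcm2 (264 ± 63.4 and 135 ± 17.7) were called lower and Ccna2 was not (adjusted p = 0.0506, edgeR), while Mki67 (215 ± 73.3 and 204 ± 64.2) and Cdk1 (114 ± 36.7 and 116 ± 22.5) overlapped between the groups (SD, n = 3 each). The 4 adipocyte genes summed to 0.0252 to 19.9 CPM in ICI and 26.9 to 41.2 in RT_ICI, with 0 of 3 tested genes called and none at 0 in all libraries of a group. Cfd alone held 24.9 to 39.3 CPM of the RT_ICI sums, and Adipoq, Plin1 and Lep overlapped between the groups. Sums of 4 keratinocyte genes were at 2.04 to 2.79 CPM in ICI and 3.27 to 4.21 in RT_ICI, with 0 of 1 tested gene called, Krt5 at 0 in all ICI libraries and Krt14 in all RT_ICI libraries. These sums were nearly all Sbsn, at 1.98 to 2.72 CPM in ICI and 3.27 to 4.19 in RT_ICI. Sums for T and NK cells, B cells, myeloid cells, fibroblasts, endothelium, muscle and red cells overlapped between the groups. Single libraries stood apart in some of them. Muscle genes summed to 2000 and 838 CPM in RT_ICI replicates 1 and 2 and to 13.7 in replicate 4, against 0.899 to 170 in ICI. Red cell genes summed to 2677 CPM in ICI replicate 3 and to 64.1 to 373 in the other libraries. The part of these differences in the results on the kinases was not tested. In bulk tumour RNA, fewer cells of a type and less RNA per cell cannot be told apart.

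Atm had the largest difference of the family. It stood at 28.1, 22.3 and 25.2 CPM in ICI replicates 1, 2 and 3, after scaling by trimmed mean of M values (TMM), and at 9.40, 6.99 and 8.17 CPM in RT_ICI replicates 1, 2 and 4. Every RT_ICI library lay below every ICI library, and the lowest ICI value was more than double the highest RT_ICI value. The raw counts behind these levels were 979, 887 and 1203 in ICI and 265, 310 and 175 in RT_ICI. It averaged 25.2 ± 2.91 CPM under the inhibitor alone and 8.18 ± 1.21 with radiation (SD, n = 3 each), which is 32.5% of the ICI mean and a fitted log2 fold change of -1.62 (SE 0.18). Of the 799 genes called lower, 54 had a more negative log2 fold change, and of all tested genes, called or not, 198 did. Among the 1686 genes of the longest 10%, 5 did. These ranks are a description, since Atm was chosen for its difference in this contrast.

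Smg1, the kinase of nonsense-mediated decay, was the other member whose groups did not overlap. Its levels were 101, 84.5 and 97.1 CPM in ICI and 55.2, 58.3 and 58.0 in RT_ICI. It averaged 94.2 ± 8.53 CPM under the inhibitor alone and 57.2 ± 1.75 with radiation (SD, n = 3 each), a log2 fold change of -0.72 (SE 0.12) and 60.7% of the ICI mean. The RT_ICI libraries lay close together and the spread was wider in ICI. Smg1 held 3360 to 4645 counts in ICI and 1242 to 2589 in RT_ICI.

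The other 4 members had overlapping groups. Atr stood at 17.7, 22.0 and 22.7 CPM in ICI and 19.0, 18.7 and 20.7 in RT_ICI, and the lowest of all 6 values was an ICI library. Its log2 fold change was -0.10 (SE 0.15). Prkdc stood at 24.96, 22.5 and 25.3 CPM in ICI and 20.0, 24.6 and 25.1 in RT_ICI, where replicate 1 was the low library and the other two matched the ICI values. Its log2 fold change was -0.06 (SE 0.15). Mtor, at 45.2, 44.0 and 42.1 CPM in ICI and 43.9, 46.7 and 39.3 in RT_ICI, had the log2 fold change nearest to 0, at -0.01 (SE 0.12).

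Trrap varied most within a group. It stood at 119, 112 and 120 CPM in ICI, and at 94.8, 153 and 139 in RT_ICI, so RT_ICI replicate 1 lay below all ICI libraries and replicates 2 and 4 above them. It averaged 117 ± 4.19 CPM under the inhibitor alone and 129 ± 30.5 with radiation (SD, n = 3 each), with a log2 fold change of 0.14 (SE 0.18) that was 0.32 without RT_ICI replicate 1 and 0.01 without RT_ICI replicate 2.

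**Figure D1:**
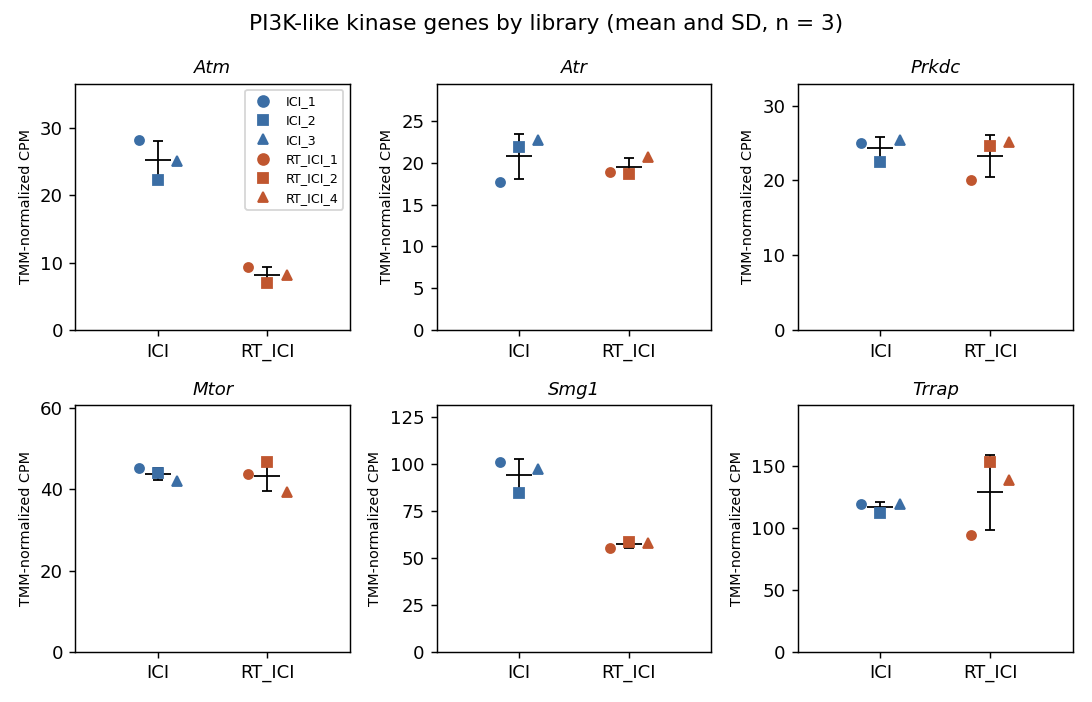
Level of each PI3K-like kinase gene (vertical axis, TMM-normalized CPM from 0) in the 3 ICI libraries (blue) and the 3 RT_ICI libraries (orange), 1 symbol per library, with the mean and SD in black. Atm (25.2 against 8.18 CPM) and Smg1 (94.2 against 57.2) have no overlap between the groups, and the other 4 genes overlap.

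All 6 members passed the filter on low counts. Called lower were 2 of them, Atm and Smg1, and 0 were called higher, with 4.72% and 4.46% of all tested genes called in those directions. Groups without overlap were seen for the same 2 members, and for 37.2% of all tested genes, 19.4% lower and 17.8% higher. In the longest 10% of genes, 33.3% had groups that did not overlap and were lower in RT_ICI. Because the family was chosen on this contrast, nothing is read from these counts. The median log2 fold change of the 6 members was -0.08, that of the 5 relatives of Atm -0.06, and that of all tested genes 0.01. The sum of the 6 members was 325 ± 15.4 CPM under the inhibitor alone and 280 ± 34.3 with radiation (SD, n = 3 each), and the 2 ranges overlapped, since RT_ICI replicate 2 reached 309 CPM and ICI replicate 2 was at 308. The edgeR calls of Atm and Smg1, likewise only a description, depended on the libraries included. Neither member was called without ICI replicate 1, ICI replicate 3 or RT_ICI replicate 2, and Smg1 was not called without RT_ICI replicate 4. The log2 fold changes with 1 library left out ran from -1.74 (without RT_ICI replicate 1) to -1.51 (without RT_ICI replicate 2) for Atm and from -0.80 (without ICI replicate 2) to -0.68 (without ICI replicate 1) for Smg1.

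**Figure D2:**
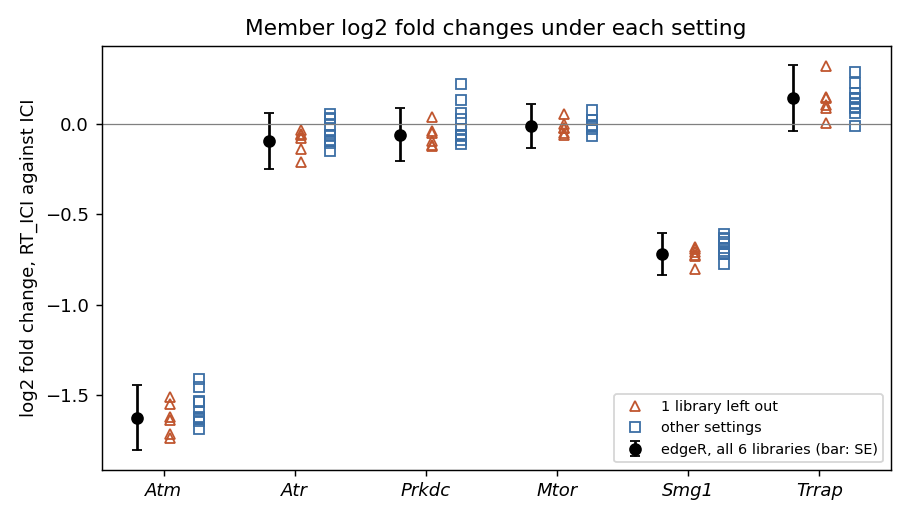
Log2 fold change of each member between RT_ICI and ICI (vertical axis) in the edgeR fit of all 6 libraries (black, bar 1 SE), with 1 library left out (triangles) and under the other settings (squares). Atm lies between -1.74 and -1.41 and Smg1 between -0.80 and -0.61 under every setting drawn. The other 4 members lie between -0.21 (Atr without ICI replicate 1) and 0.32 (Trrap without RT_ICI replicate 1).

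Ratios of raw counts within a library need no scaling between libraries. They are not corrected for the length or the G and C content of the genes. The log2 ratio of Atm to Prkdc was 0.17, -0.01 and -0.01 in ICI replicates 1, 2 and 3, which is near equal counts, and -1.09, -1.82 and -1.62 in RT_ICI replicates 1, 2 and 4. The ratio of Atm to Mtor averaged -0.80 ± 0.16 under the inhibitor alone and -2.41 ± 0.29 with radiation (SD, n = 3 each, log2 scale). That of Atm to Atr averaged 0.28 ± 0.34 and -1.26 ± 0.22. In ICI the counts of Atm were close to those of Prkdc and above those of Atr, and in RT_ICI they were below both in every library. The ratio of Atm to Trrap had the widest change, from -2.22 ± 0.13 to -3.96 ± 0.57. The ratio of Atm to Smg1 had the smallest, from -1.90 ± 0.06 to -2.81 ± 0.25. None of the 5 ratios overlapped between the groups. All 5 share Atm, which was chosen on this contrast, so they are a description and not 5 separate observations. Atm took 7.26% to 8.38% of the family's counts in ICI and 2.26% to 3.88% in RT_ICI, and Smg1 took 27.5% to 30.0% and 18.9% to 22.8%.

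Levels of different genes were compared as CPM per kilobase of union exon length. In every ICI library the order was Trrap, Mtor, Smg1, Atm, Prkdc and Atr. The mean levels in ICI were 5.61 ± 0.20 for Trrap, 4.33 ± 0.15 for Mtor, 3.93 ± 0.36 for Smg1, 2.44 ± 0.28 for Atm, 1.84 ± 0.12 for Prkdc and 0.880 ± 0.115 for Atr (CPM per kilobase, SD, n = 3). Values of Mtor and Smg1 overlapped between libraries and the other neighbours in this order did not. In RT_ICI the means were 6.18 ± 1.46 for Trrap, 4.28 ± 0.37 for Mtor, 2.38 ± 0.07 for Smg1, 1.76 ± 0.21 for Prkdc, 0.824 ± 0.046 for Atr and 0.792 ± 0.117 for Atm (same scale and n). Atm moved from the fourth place to a level that overlapped with Atr, and lay above Atr in RT_ICI replicate 1 and below it in replicates 2 and 4. The order depends on the length used. Per kilobase of longest transcript, Smg1 (6.05 ± 0.55) lay above Mtor (5.11 ± 0.18) in every ICI library, and below it in every RT_ICI library. The annotated exons of Atr cover 23629 bases against 8102 in its longest transcript. Per kilobase of longest transcript Atr was at 2.57 ± 0.33 in ICI, beside 2.57 ± 0.30 for Atm and 1.92 ± 0.12 for Prkdc. On that scale Atm was the lowest member in each RT_ICI library.

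Length and base composition went with the difference between the groups across all genes. The median log2 fold change was 0.33 for the shortest 10% of tested genes by union exon length and -0.17 for the longest 10%. It was -0.14 for the 10% of genes poorest in G and C and 0.29 for the 10% richest. Among the longest 10%, 11.0% of 1686 genes were called lower and 2.49% higher. Of the longest genes, 0.297% had a log2 fold change below that of Atm, 7.12% below that of Smg1, 56.2% below that of Atr, 59.4% below that of Prkdc, 63.6% below that of Mtor and 74.97% below that of Trrap. So Atm lay at the lower end of genes of its length, Smg1 in the lower part, and the other 4 above the middle. The place of Atm is a description, since Atm was chosen for its difference in this contrast. A correction of each library for both properties left 1.80% of all genes called higher and 2.45% called lower. With it, the log2 fold change was -1.41 (SE 0.18) for Atm, -0.63 (SE 0.11) for Smg1, 0.03 (SE 0.17) for Atr, 0.13 (SE 0.14) for Prkdc, -0.03 (SE 0.12) for Mtor and 0.09 (SE 0.19) for Trrap. The part of RNA quality in these trends was not tested.

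**Figure D3:**
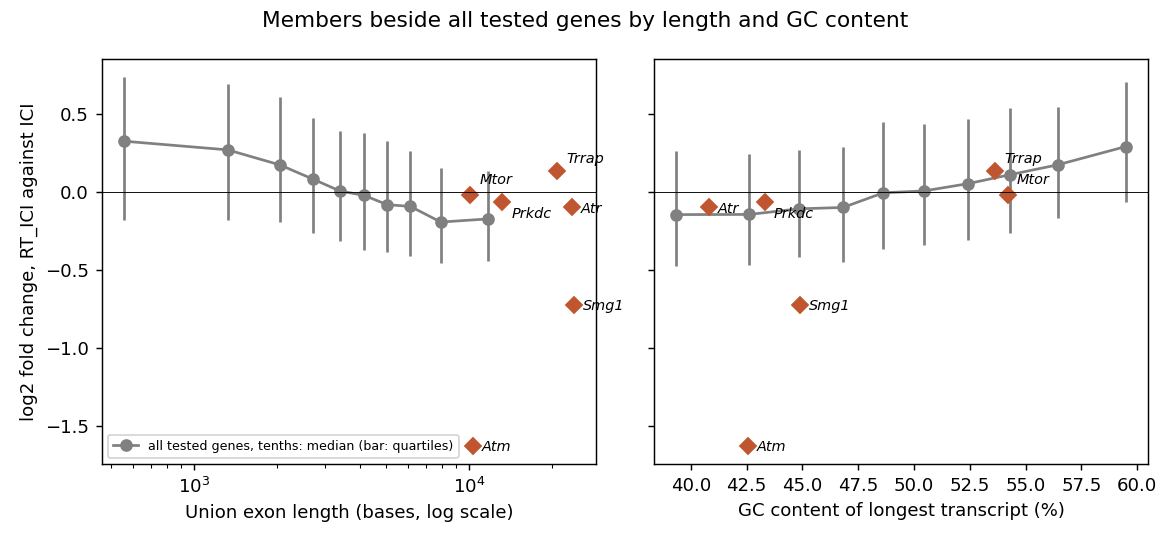
Log2 fold change between RT_ICI and ICI (vertical axis) against union exon length in bases (left, log scale) and the percentage of G and C in the longest transcript (right), for all tested genes in 10 groups of near equal size (grey, median with quartiles as bars) and the 6 members (orange). The grey medians go from 0.33 in the shortest group to -0.17 in the longest, and Atm (-1.62) and Smg1 (-0.72) lie below the quartile bars of the longest group.

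The genes around Atm on chromosome 9 were taken as the 3 nearest tested protein-coding genes on each side. Npat, whose start faces that of Atm (53537047 to 53574342, plus strand), stood at 24.6, 28.0 and 26.4 CPM in ICI and 22.0, 26.6 and 24.0 in RT_ICI. The groups overlapped, and the log2 fold change of Npat was -0.12 (SE 0.14, adjusted p = 0.566, edgeR). The log2 ratio of Atm to Npat counts was 0.19, -0.32 and -0.07 in ICI and -1.22, -1.93 and -1.55 in RT_ICI. The counts of the pair were near each other in ICI, and those of Atm were lower in every RT_ICI library. Counts are not levels per length, since the annotated exons cover 10338 bases in Atm and 6248 in Npat. Beyond Npat, Acat1, a mitochondrial acetyl-CoA acetyltransferase, averaged 131 ± 13.0 CPM in ICI and 116 ± 20.0 in RT_ICI (adjusted p = 0.452), and Cul5, a ubiquitin ligase scaffold, fell from 56.7 ± 2.28 to 42.0 ± 1.75 CPM (adjusted p = 0.0486, SD, n = 3 each, edgeR). On the other side, Poglut3, a glucosyltransferase, was at 24.5 ± 0.0798 and 21.1 ± 4.09 CPM (adjusted p = 0.413), the RNA helicase gene Ddx10 at 22.9 ± 0.378 and 13.6 ± 3.67 (adjusted p = 0.0544), and Zc3h12c, an RNase of the Regnase family 1270576 bases away, fell from 11.2 ± 0.881 to 5.77 ± 0.529 (adjusted p = 0.0328, SD, n = 3 each, edgeR). Of these 6 tested neighbours, 2 were called lower and 0 higher, against 4.72% and 4.46% of all tested genes. With the length and GC correction neither call held (adjusted p = 0.207 for Cul5 and 0.0582 for Zc3h12c), and both were lost on leaving out any 1 library other than RT_ICI replicate 1. That of Cul5 was also lost with median-of-ratios scaling (0.0512), upper-quartile scaling (0.0838), limma-voom (0.0551), no filter (0.0529) or a filter of 1 CPM (0.0527).

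**Figure D4:**
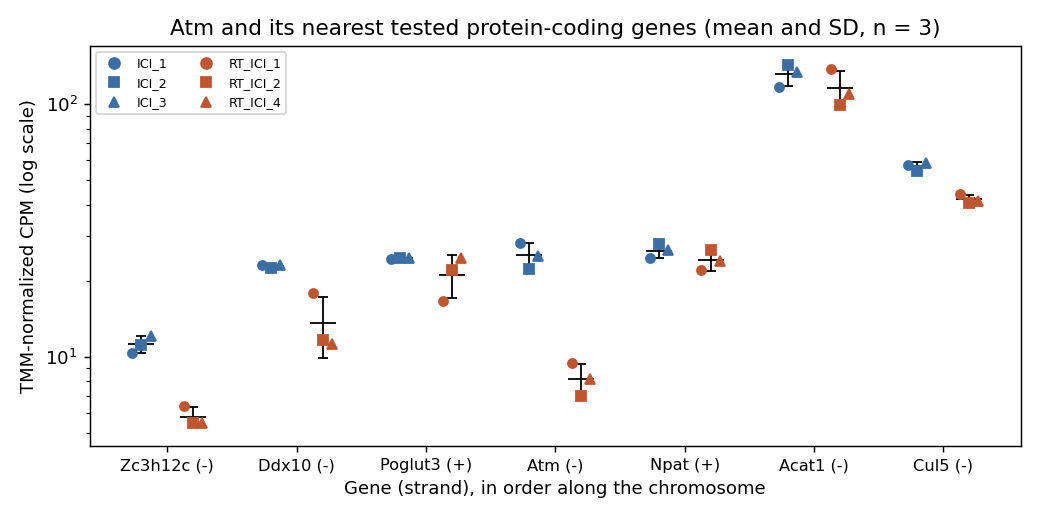
Level (vertical axis, TMM-normalized CPM, log scale) of Atm and its 3 nearest tested protein-coding genes on each side, in chromosome order, with 1 symbol per library, ICI in blue, RT_ICI in orange, and mean and SD in black. Npat, whose start faces that of Atm, overlaps between the groups (26.3 against 24.2 CPM on average), and Atm does not (25.2 against 8.18).

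The genes whose mean-centred log2 CPM over the 6 libraries lay nearest to those of Atm, among 14060 compared, were Rbpj-ps3, Zbed6, Gm7902, Lrch3 and Riox2, with root-mean-square differences of 0.04, 0.12, 0.14, 0.14 and 0.15. Among the members, Smg1 was nearest (0.48), and the others lay from 0.80 to 0.93 away. The row named Zbed6 held 24.8, 20.6 and 24.3 CPM in ICI and 8.23, 5.32 and 6.49 in RT_ICI, a pattern close to that of Atm in each library. Several of the 5 share sequence with other genes, which makes their counts uncertain. All of Rbpj-ps3 is near-identical to Rbpj and 87.4% of Gm7902 to Slc35e3, the gene counted as Zbed6 spans, by its identifier in GENCODE M21, a transcript that shares 49.3% of its exon bases with Zbed6 and 43.2% with Zc3h11a, and 44.9% of the exon bases of Lrch3 and 22.4% of those of Riox2 lie opposite Iqcg and Crybg3. These genes were chosen by likeness to Atm, and their levels are a description.

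Around the kinases, 144 tested genes in 9 lists of partners, regulators, substrates and related lipid kinases were examined. Of these, 15 fell (10.4%) and 3 rose (2.08%), against 4.72% and 4.46% of all tested genes and 11.0% and 2.49% of the longest 10%. Their median log2 fold change was -0.13, against 0.01 over all tested genes. The counts of the single lists below are small, and the same shares of all tested genes stand beside each. The lists also hold shorter genes, such as Magoh with 770 bases of union exon. The longest 10%, which starts at 9186 bases, is therefore not a set matched to them in length. The adjusted p-values of the 18 genes lay between 0.0264 and 0.0499 (edgeR). Without ICI replicate 1, ICI replicate 3, RT_ICI replicate 2 or RT_ICI replicate 4, 0 fell and 0 rose, leaving out ICI replicate 2 gave 8 and 1, and leaving out RT_ICI replicate 1 gave 22 and 10. Of the 18 genes, 7 were still called in the former fit (Brca1, Smc3, Mdc1, Rnf168, Hsp90aa1, Pdpk1 and Eif4ebp2) and 17 in the latter. The 4 fits without a call among the pathway genes called 0 to 81 genes higher and 0 to 16 lower over all genes. In them the unadjusted p of edgeR was under 0.05 for 1841 to 2353 genes higher and 1860 to 2203 lower, of 17266 to 17746 tested. With the length and GC correction 8 of the 18 were called, all lower, and the other 10 were at adjusted p = 0.05002 to 0.237. Upper-quartile scaling lost Kat2b, Smg8, Tada2b, Topbp1 and Trim28, and limma-voom lost Tfeb, Topbp1, Trim28 and Yeats4.

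Of 9 genes that assemble PI3K-like kinases, 1 fell, 0 rose and 8 did not pass, with a median log2 fold change of -0.24. Hsp90aa1, the inducible Hsp90 chaperone, fell 1.94-fold from 1309 ± 213 to 676 ± 87.6 CPM (SD, n = 3 each). Processed pseudogenes are near-identical to up to 68.7% of its transcript. Telo2, which binds newly made kinases of the whole family, was at 86.8 ± 11.6 and 81.2 ± 21.7 CPM (adjusted p = 0.774, edgeR).

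Of 16 activators and partners of Atm, Atr and DNA-PK, 2 fell, 0 rose and 14 did not pass, with a median log2 fold change of -0.37. Over all tested genes 4.72% fell and 4.46% rose. Rad1, of the ring-shaped clamp that is loaded at damaged DNA for Atr, fell 1.80-fold from 20.4 ± 1.78 to 11.4 ± 1.55 CPM, and Topbp1, an activator of Atr, fell 1.54-fold from 96.0 ± 17.6 to 62.2 ± 4.86 (SD, n = 3 each). Topbp1 was the 1 gene of the 18 not called without RT_ICI replicate 1 (adjusted p = 0.0520), and with the length and GC correction neither gene was called (0.0582 for Rad1 and 0.0788 for Topbp1), and the median log2 fold change of the list was -0.39. In the complex that activates Atm, Mre11a was at 32.2 ± 2.86 and 25.5 ± 0.794 CPM (adjusted p = 0.119), Nbn at 24.7 ± 2.51 and 19.9 ± 2.23 (0.203) and Rad50 at 54.8 ± 2.84 and 48.7 ± 8.39 (0.457, SD, n = 3 each, edgeR). Atrip, the partner of Atr, was at 22.4 ± 0.831 and 20.6 ± 2.05 CPM (adjusted p = 0.584, edgeR), and 16% of its exon bases also belong to Trex1. The Ku genes were at 80.7 ± 6.55 and 89.8 ± 13.4 CPM for Xrcc5 (adjusted p = 0.491) and 77.5 ± 7.22 and 58.9 ± 4.76 for Xrcc6 (0.0786, edgeR).

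Of 20 substrates and mediators of the damage kinases, 5 fell, 0 rose and 15 did not pass, with a median log2 fold change of -0.30. The shares over all tested genes were 4.72% lower and 4.46% higher. Brca1, of homologous recombination, fell 2.31-fold from 91.7 ± 22.1 to 39.8 ± 4.77 CPM, Smc3, a cohesin subunit, 1.74-fold from 93.8 ± 14.5 to 54.1 ± 3.97, Mdc1, which binds phosphorylated H2AX, 1.71-fold from 49.9 ± 9.77 to 29.2 ± 1.52, and Rnf168, a ubiquitin ligase at breaks, 1.53-fold from 42.5 ± 4.66 to 27.8 ± 0.821 (SD, n = 3 each). Trim28, a chromatin corepressor phosphorylated by Atm, fell 1.47-fold to 147 ± 3.96 CPM, and is named after its value was seen. The effector kinases were not called. Chek1 was at 25.2 ± 4.82 and 21.0 ± 4.58 CPM (adjusted p = 0.412) and Chek2 at 19.4 ± 1.73 and 14.03 ± 3.32 (0.164, edgeR). Trp53, which encodes p53, was at 86.5 ± 7.67 and 73.9 ± 22.4 CPM (adjusted p = 0.512, edgeR). With the length and GC correction Smc3 (adjusted p = 0.05002) and Rnf168 (0.0603) were no longer called, and the median log2 fold change of the list was -0.31. Of the 5 dividing-cell genes given above, Top2a and Mcm2 were called lower as well, Ccna2, Mki67 and Cdk1 were not, and their part in this list was not tested.

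Genes around Mtor were listed as complex subunits, upstream regulators and substrates. Their counts of calls stand beside 4.72% lower and 4.46% higher over all tested genes. Of 8 subunits of its complexes 0 were called by edgeR, with a median log2 fold change of -0.28. Rptor, the scaffold of the growth-regulating complex 1, was at 67.3 ± 8.39 and 59.0 ± 2.99 CPM (adjusted p = 0.335), and Rictor, that of complex 2, at 116 ± 3.50 and 107 ± 24.1 (0.668, SD, n = 3 each, edgeR). Of 25 upstream regulators 1 fell, 0 rose and 24 did not pass (median log2 fold change 0.04): Pdpk1, the kinase that activates Akt, fell 1.91-fold from 34.6 ± 5.73 to 18.1 ± 3.45 CPM. Of 13 substrates 1 fell, 1 rose and 11 did not pass (median 0.04). Eif4ebp2, a repressor of translation that Mtor inactivates, fell 1.64-fold from 231 ± 40.4 to 141 ± 10.6 CPM, and Tfeb, a lysosome transcription factor held in the cytoplasm by Mtor, rose 1.34-fold from 42.9 ± 1.84 to 57.4 ± 0.896 (SD, n = 3 each). The call of Tfeb, at adjusted p = 0.0499, did not hold with limma-voom (0.0551), without a filter on low counts (0.195), without the mitochondrially encoded genes (0.0512) or with the length and GC correction (0.237). That of Eif4ebp2 did not hold with the last (0.0508).

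Of 14 genes of nonsense-mediated decay, 1 fell, 0 rose and 13 did not pass, with a median log2 fold change of -0.13. The one that fell was Smg8, a direct subunit of the Smg1 kinase complex, which went from 29.4 ± 2.28 to 19.5 ± 1.96 CPM, 1.51-fold lower (adjusted p = 0.0437, edgeR, and 0.0629 with upper-quartile scaling). Upf1, the helicase that Smg1 phosphorylates, was at 153 ± 9.42 and 139 ± 38.6 CPM (adjusted p = 0.650, SD, n = 3 each, edgeR).

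Of 28 subunits and partners of the Trrap complexes, 3 fell, 2 rose and 23 did not pass, with a median log2 fold change of -0.11. The subunits of the SAGA coactivator that fell were Tada1 (1.87-fold, from 11.9 ± 1.58 to 6.37 ± 0.656 CPM) and Tada2b (1.64-fold, from 36.5 ± 4.35 to 22.3 ± 3.67), with the acetyltransferase Kat2b (1.61-fold, from 68.8 ± 11.8 to 42.7 ± 4.33). In the GENCODE annotation 25.6% of the exon bases of Tada1 lie opposite Pogk, and a pseudogene is near-identical to 53.3% of the Kat2b transcript. Under upper-quartile scaling Kat2b (adjusted p = 0.0508) and Tada2b (0.0566) were not called. The 2 that rose belong to the NuA4 complex, Dmap1 (1.59-fold, from 21.2 ± 2.12 to 33.7 ± 4.10 CPM) and Yeats4 (1.38-fold, to 57.4 ± 4.49, named after its value was seen). With the length and GC correction Dmap1 (adjusted p = 0.138), Yeats4 (0.226) and Kat2b (0.0554, edgeR) were not called. The call of Yeats4, at adjusted p = 0.0488, was also lost without a filter on low counts (0.124), without the mitochondrially encoded genes (0.0501) and with limma-voom (0.0554, edgeR otherwise). Ep400, the motor of NuA4, was at 82.0 ± 4.24 and 65.6 ± 1.14 CPM (adjusted p = 0.0879, SD, n = 3 each, edgeR).

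The lipid kinases related in the catalytic domain showed 1 gene lower, 0 higher and 10 not passing of 11 tested, with a median log2 fold change of -0.33. Pik3c2a, a class II enzyme of endosomes, fell 2.05-fold from 22.4 ± 1.66 to 10.9 ± 2.27 CPM (SD, n = 3 each, adjusted p = 0.0299, and 0.0534 with the length and GC correction, edgeR). An antisense gene covers 12.3% of its exon bases.

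**Figure D5:**
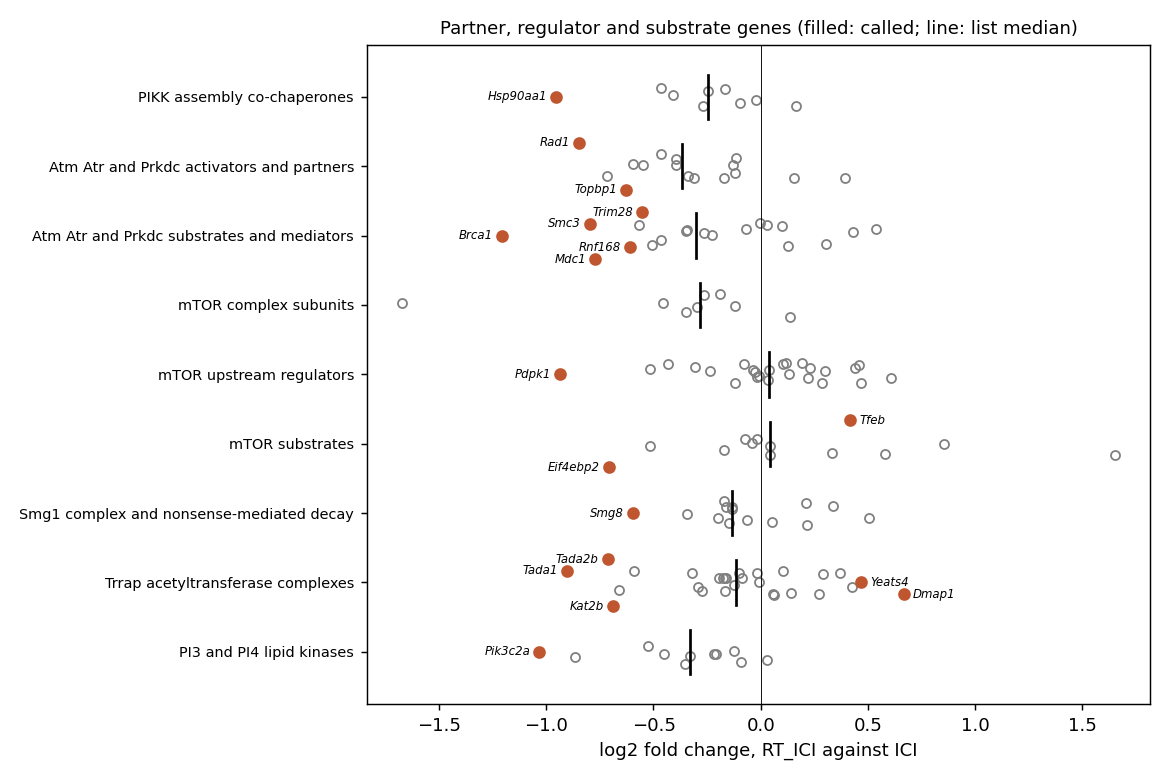
Log2 fold change between RT_ICI and ICI (horizontal axis) of 144 tested genes in 9 lists of partners, regulators, substrates and related kinases, 1 circle per gene, filled and named where called by edgeR, with the list median as a line (vertical position within a list has no meaning). The damage-kinase lists have medians of -0.37 and -0.30 and 7 called genes, all lower, and the lists of Mtor regulators and substrates have medians of 0.04.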

How the data were processed

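RNA was measured in 6 libraries of B16 tumour RNA, 3 per group, each counted as 1 replicate. The authors' deposited table holds raw counts of reads for each gene, as whole numbers. HISAT2, GRCm38 and mm10 are named per the submitters' processing notes. For the counting tool, annotation, strand setting and versions, the sources used here give nothing. No libraries agreed within sampling noise (chi-square per degree of freedom at least 36.3).

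Genes were filtered with filterByExpr (16924 left), scaled by TMM and compared by the robust quasi-likelihood test of edgeR 4.0.16 in R 4.3.3, tested on simulated data, with Benjamini-Hochberg adjustment over all tested genes and a threshold of 0.05. CPM was computed from the deposited counts over the tested genes, and SE from the coefficient and F statistic. Lengths, GC content and overlaps came from GENCODE M21 (GRCm38), with length and GC for 99.6% of tested genes, and near-identity (at least 200 bases at 95%) from blastn 2.17.0. The correction for length and GC used per-library splines with 5 degrees of freedom each as offsets. Other settings were other scalings and filters, DESeq2 1.42.0, limma-voom (limma 3.58.1), a replicate block and leaving out each library.

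The members and gene lists were chosen with earlier results of these data known. Named genes are the members, fixed partners, up to 4 called genes per list with the largest change, the 3 nearest tested protein-coding neighbours of Atm on each side and the 5 genes nearest to Atm in pattern, from those averaging 1 CPM or more.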

Additional observations from a re-analysis of the deposited data

How the results depend on the processing

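With 1 library left out, the genes called ranged from 0 to 1564 higher and 0 to 1545 lower over all genes, and from 0 to 10 higher and 0 to 22 lower among the pathway genes. Over all genes (754 higher, 799 lower), DESeq2 called 1746 and 1703, the replicate block 400 and 245, the length and GC correction 305 and 415, the block with that correction 228 and 152, and the correction without RT_ICI replicate 1 1213 and 1343. Upper-quartile scaling called 497 lower, and no filter 1507 lower. Among pathway genes (3 higher, 15 lower), DESeq2 called 7 and 24, the replicate block 1 and 2, the correction 0 and 8, and the block with the correction 1 and 1. The number higher was 6 with upper-quartile scaling, 5 with at least 1 CPM in 3 libraries, 7 with the correction without RT_ICI replicate 1, and 1 with limma-voom or without mitochondrially encoded genes. The number lower was 24 without a filter.

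Atm, at -1.62, was at -1.41 after the correction, Prkdc, at -0.06, at 0.13 and, without RT_ICI replicate 1, 0.22, and Smg1, at -0.72, at -0.61 in the latter fit. Per kilobase of longest transcript, levels in ICI and RT_ICI were 2.57 and 2.40 for Atr, 5.11 and 5.06 for Mtor, 6.05 and 3.67 for Smg1, and 9.38 and 10.3 for Trrap. For the settings other than length and left-out libraries the cause was not tested. Libraries of the same replicate number had deviations correlated at 0.353 (replicate 1) and 0.0909 (replicate 2). Pairs of unlike number ran from -0.32 (ICI replicate 1 with RT_ICI replicate 4) to 0.27 (ICI replicate 3 with RT_ICI replicate 4). The number is not stated to mark a shared source, and whether it does is not known. With the number as a replicate block, 2 of the 18 called pathway genes were still called, and the neighbours Cul5 (adjusted p = 0.223, edgeR) and Zc3h12c (0.121) were not. Of the members, Atm was called with the block and Smg1 was not, both with and without the length and GC correction. Nothing is read from these member calls, since the family was chosen on this contrast. Groups of 3 limit the precision of every difference.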
